A study of Mus musculus with 8 samples.

Results

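The genes described here are 7 keratins of mouse mammary basal cells: Krt5, Krt14, Krt15, Krt17, Krt6a, Krt16 and Krt23. They were taken by name from the 54837 genes of the count table, with earlier results of these data known. All 7 had enough counts to be tested among 15192 genes. RNA came from untreated mammary basal cells of C57BL/B6 mice, separated into resting cells (G0) and cells preparing to copy their DNA (G1). There were 4 runs with a library of each phase, so n = 4 per phase, and libraries held 5868728 to 15014104 counts. The sources used here do not give the age or genotype of the mice or the sort markers, nor whether a run was a separate animal or a pool. The p-values therefore measure the spread between these libraries, which may be partly technical. In bulk RNA, fewer cells of a type and less RNA per cell cannot be told apart.

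Keratins are the intermediate filament proteins of epithelial cells. A filament is built from pairs of 1 acidic type I chain and 1 basic type II chain, so the amounts of partner chains matter as well as the amount of each. Krt5 (type II) and Krt14 (type I) form the main network of the basal layer of stratified epithelia and of the outer layer of the mammary duct, and Krt8, Krt18 and Krt19 mark its luminal layer. Krt15 is a type I keratin of basal cells that is also used as a marker of hair follicle stem cells. Krt6a, Krt16 and Krt17 are induced in skin by wounding and stress. Krt23 is a small type I keratin that is less well studied. Among the 7, Krt5 and Krt6a are type II and the others type I.

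In these libraries Krt23 was higher in G1 than in G0 in every run, and Krt5 and Krt14, the abundant pair, were not called different in any fit. Krt23 averaged 29.8 ± 7.21 in G0 against 51.4 ± 17.4 in G1 (SD, n = 4), in CPM, the read count scaled to library size, here with TMM factors that allow for library composition. Krt15 and Krt17 were higher and Krt6a lower in G1 in all 4 runs, but none of these passed the test. Krt16 was lower in G1 in 3 of 4 runs. Without a term for the run, edgeR's quasi-likelihood test called 0 of the 15192 genes (0%) at a Benjamini-Hochberg adjusted p of 0.05, and DESeq2 called 10 higher and 24 lower. An unadjusted p under 0.05 was found for 425 genes (2.8%), among them 1 of the 7 keratins, Krt23. A replicate block for the run brought the edgeR calls to 189 genes (1.24%). Of these, 73 were higher in G1 (0.481% of those tested), including 1 of the 7 keratins, Krt23, and 116 were lower (0.764%), including 0 of the 7.

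The end of the central helical rod is a part of the protein that is highly conserved among keratins. A stretch of the Krt14 coding sequence there is shown with its best match, without gaps, in the other type I members and in Krt42, because the likeness sets how far reads can be assigned to 1 keratin. Capitals mark bases that differ from Krt14.
Krt14: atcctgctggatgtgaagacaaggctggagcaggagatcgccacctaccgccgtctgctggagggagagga
Krt17: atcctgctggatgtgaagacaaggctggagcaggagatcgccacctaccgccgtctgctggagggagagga
Krt16: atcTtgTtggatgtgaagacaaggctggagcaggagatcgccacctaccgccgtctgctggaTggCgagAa
Krt42: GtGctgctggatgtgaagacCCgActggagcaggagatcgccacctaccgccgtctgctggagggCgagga
Krt15: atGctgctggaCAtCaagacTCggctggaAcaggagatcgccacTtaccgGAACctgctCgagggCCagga
Krt23: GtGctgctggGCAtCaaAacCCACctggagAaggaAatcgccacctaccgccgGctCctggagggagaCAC

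Over this stretch Krt17 was identical to Krt14, Krt16 differed at 5 bases, Krt42 at 6, Krt15 at 15 and Krt23 at 18. Over the whole coding sequence Krt16 was 83.2% identical to Krt14, Krt17 74.9%, Krt15 67.4% and Krt23 52.5%. Krt23 was thus the member least like Krt14 among the type I genes. A longer run of 134 bases, around the start of the rod, is the same in Krt14 and Krt16. It is printed because a read of 100 bases inside it cannot tell the genes apart.
Krt14 and Krt16: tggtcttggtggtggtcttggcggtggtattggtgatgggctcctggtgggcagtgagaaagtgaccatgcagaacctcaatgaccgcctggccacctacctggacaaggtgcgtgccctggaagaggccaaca

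Windows of 100 bases, the read length given in the labels, were compared with all GENCODE M21 transcripts. None of the windows of Krt15, Krt17 or Krt23 (0%) occurred in the transcript of another gene. The shares were 2.88% for Krt14, through Krt16, and 3.81% for Krt5, mainly through Krt6a. For Krt16 the share was 24.3%, mainly through the pseudogene Gm11597, and for Krt6a it was 47.5%, mainly through its close copy Krt6b. Krt6b had at most 2 counts and Gm11597 at most 1 count in any library. With windows of 50 bases the shares were 14.4% for Krt14, 12.2% for Krt5, 37.6% for Krt16 and 62.0% for Krt6a. They were 0.666% for Krt15, 3.99% for Krt17 and 0% for Krt23. The sources used here do not say how reads matching several genes were counted. The levels of members that share windows are therefore uncertain, and the shares were largest for Krt6a and Krt16.

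Genes on the opposite strand also bear on 2 members. Gm44323, annotated as a microRNA gene, lies within an exon of Krt5 at chr15:101710274-101710402, and its counts came to 12.8% to 21.7% of those of Krt5 in the 8 libraries. The antisense gene Gm49428 overlaps Krt6a at chr15:101690309-101691941, with 11 to 34 counts, or 14.9% to 57.1% of those of Krt6a. It is not known whether the counting used strand, so reads of these genes and of the keratins cannot be told apart. No annotated gene overlaps Krt14, Krt15, Krt16, Krt17 or Krt23.

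The members lie in the 2 keratin gene clusters of the mouse, positions being those of GENCODE M21 on GRCm38. The type II genes Krt5 (ENSMUSG00000061527, chr15:101707070-101712898) and Krt6a (ENSMUSG00000058354, chr15:101689910-101694307) are close neighbours on the minus strand. Krt14 (ENSMUSG00000045545, chr11:100203162-100207548), Krt16 (ENSMUSG00000053797, chr11:100246091-100248902), Krt17 (ENSMUSG00000035557, chr11:100256217-100261029) and Krt15 (ENSMUSG00000054146, chr11:100131758-100135928) lie together on the minus strand of chromosome 11. Krt23 (ENSMUSG00000006777, chr11:99477974-99493137) is on the same strand further away in that cluster.

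Per kilobase of transcript, the scale on which different genes can be compared, Krt14 and Krt17 stood well above the other members. Krt14 averaged 4791 CPM per kb over the 8 libraries and Krt17 3575. Krt17 ranged from 2350 to 4166 and Krt14 from 3917 to 5773, so these neighbours in the order overlapped, although Krt14 was above Krt17 in each of the 8 libraries. Krt5 followed at 839 CPM per kb (644 to 1019) and Krt15 at 199 (91.7 to 332), neither overlapping its neighbours. Krt16, at 27.2 (16.9 to 46.5), and Krt23, at 25.9 (12.1 to 49.3), could not be ordered. Krt23 exceeded Krt16 in 1 of 4 G0 libraries and in 3 of 4 G1 libraries. Krt6a was lowest, at 3.47 CPM per kb (0.941 to 6.27).

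Together the 7 members took 1.29% to 1.86% of all counts in a library and 86.2% to 92.9% of the counts on all keratin genes. The basal identity of the cells was checked against markers. All 12 basal and myoepithelial markers passed the low-count filter and summed to 13276 to 18075 CPM in G0 and 20824 to 26410 CPM in G1. With the block, 3 of the 12 were called higher in G1, against 0.481% of all genes tested. These were Acta2, Cnn1 and Tagln, contractile genes of smooth muscle. Myh11, Mylk and Oxtr, on the same list, were not called. Their blocked log2 fold changes were 0.32, 0.38 and 0.21 (edgeR adjusted p = 0.216, 0.0876 and 0.489). Acta2 was the largest part of the sum, with a mean of 7926 CPM in G0 against 12213 in G1. Trp63, Itga6, Itgb1, Cdh3, Snai2 and Id4 were not called. Their blocked log2 fold changes were -0.008, 0.01, 0.11, -0.09, 0.12 and 0.22. The 17 genes of the luminal list summed to 1591 to 2355 CPM in G0 and 1528 to 1944 CPM in G1. The largest parts of that sum were Epcam, Cd24a and Gata3, averaging 1044, 434 and 208 CPM in G0. Others on the list were low, with Esr1, Foxa1 and Prom1 averaging 14.2, 4.44 and 2.43 CPM in G0. Endothelial markers summed to 214 to 434 CPM in G0 and 44.1 to 179 CPM in G1 over 14 genes, none of them listed at 0 throughout. Their part in the keratin levels was not tested.

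**Figure D1:**
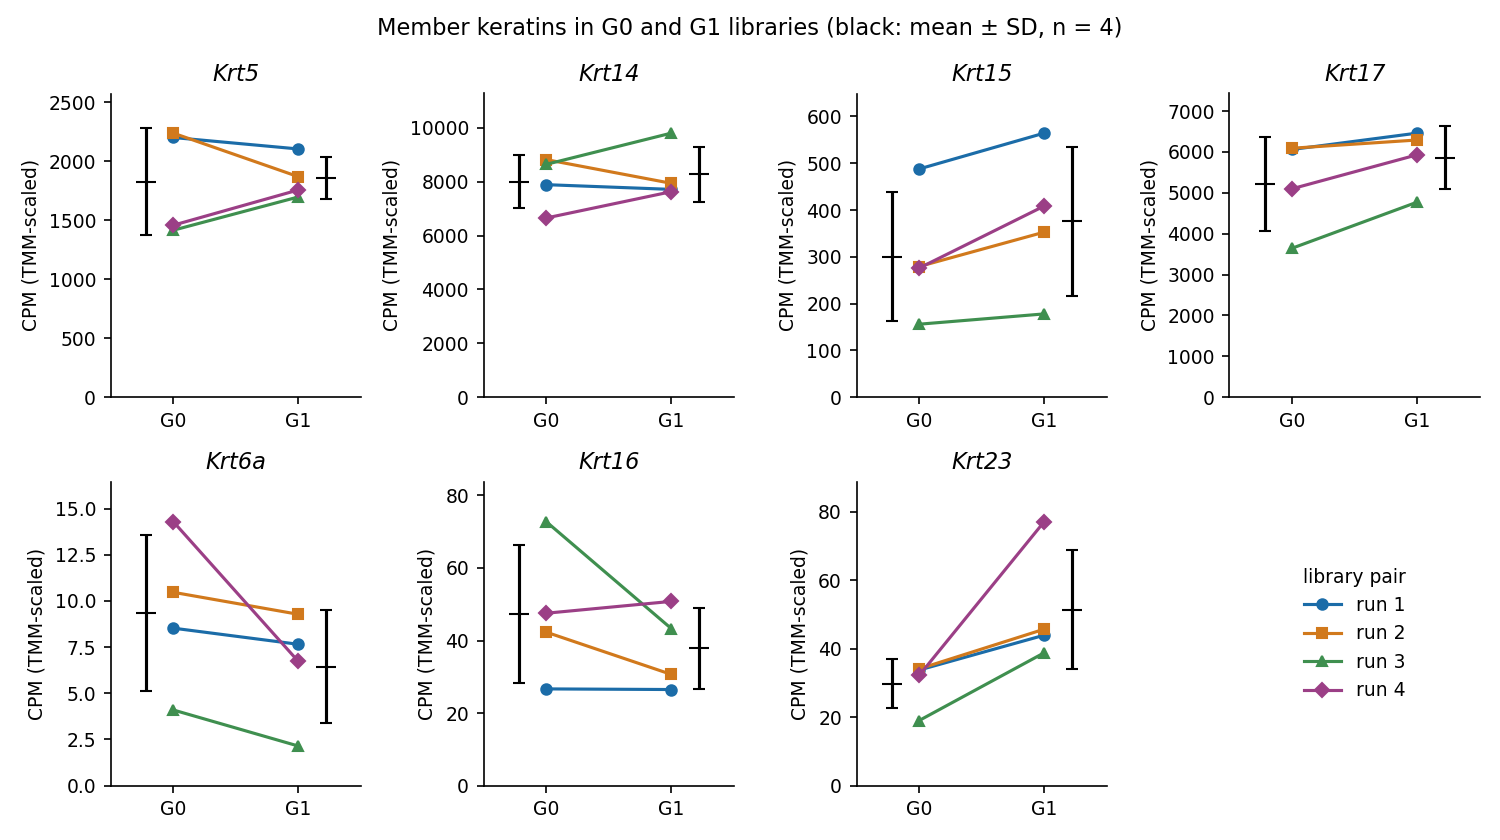
Level of each member keratin (TMM-scaled CPM, linear axes from 0, a different scale in each panel) in the G0 and G1 library of each run, joined by run, with mean ± SD (n = 4) in black. Krt23 is at 38.8 CPM or more in all G1 libraries and at 34.1 CPM or less in all G0 libraries, while the lines of Krt5 and Krt14 cross.

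Krt14 was the most abundant keratin. Its level in runs 1 to 4 was 7888, 8818, 8641 and 6650 CPM in G0 and 7713, 7938, 9802 and 7627 CPM in G1. The groups overlapped, and the G1 library was lower in runs 1 and 2 and higher in runs 3 and 4. The mean was 7999 ± 986 for G0 and 8270 ± 1030 for G1 (CPM, SD, n = 4). The log2 fold change, G1 over G0, was 0.05 ± 0.19 (SE; edgeR adjusted p = 0.9999) without the block. With the run as a block it was 0.05 ± 0.10 (edgeR adjusted p = 0.894), with a 95% interval from 0.90-fold to 1.19-fold.

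Krt5, its type II partner, was also lower in G1 in runs 1 and 2 and higher in runs 3 and 4, but its levels differed between runs in another way, with run 3 lowest in both phases. Krt5 stood at 2202, 2239, 1415 and 1458 CPM in the G0 libraries of runs 1 to 4, and at 2104, 1869, 1698 and 1757 CPM in the G1 libraries. Runs 1 and 2 were high and runs 3 and 4 low in G0, and the G1 libraries lay between these extremes. The log2 fold change was 0.02 ± 0.21 (SE; edgeR adjusted p = 0.9999). The block gave 0.05 ± 0.11 (edgeR adjusted p = 0.898), and its 95% interval ran from 0.89-fold to 1.21-fold. The intervals of both genes leave room for changes of about this size in either direction.

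The ratio of partners within a library does not depend on the scaling between libraries. There were 0.279, 0.254, 0.164 and 0.219 counts of Krt5 per count of Krt14 in the G0 libraries of runs 1 to 4, and 0.273, 0.235, 0.173 and 0.230 in the G1 libraries. The log2 ratio moved by -0.03, -0.11, 0.08 and 0.07 between the phases of a run. In contrast, run 3 was the lowest and run 1 the highest in both phases, so the pair ratio differed more between runs than between phases.

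Krt17, at the second-highest level, stood at 6062, 6092, 3644 and 5100 CPM in G0 and 6462, 6294, 4773 and 5932 CPM in G1. It was higher in G1 in each run, by 1.07, 1.03, 1.31 and 1.16-fold, but the groups overlapped. Run 3 was lowest in both phases, and the G1 library of run 4 also lay below the G0 libraries of runs 1 and 2. Of all genes tested, 11.3% were positive in all 4 runs. The log2 fold change was 0.17 ± 0.21 (SE; edgeR adjusted p = 0.9999), and 0.19 ± 0.10 with the block (edgeR adjusted p = 0.453). Relative to Krt14, the log2 ratio of Krt17 rose from G0 to G1 by 0.12, 0.20, 0.21 and 0.02.

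Krt15 varied most among the 4 abundant members, over a 3.62-fold range. Its level was 488, 279, 156 and 276 CPM in G0 and 564, 353, 178 and 409 CPM in G1. Run 1 was highest and run 3 lowest in both phases, and in each run the G1 library was the higher one, by 1.16, 1.26, 1.14 and 1.48-fold. The difference between runs was larger than that between phases, and the groups overlapped. The log2 fold change was 0.33 ± 0.38 (SE; edgeR adjusted p = 0.9999) for phase alone. Blocking by run gave 0.33 ± 0.11 (edgeR adjusted p = 0.170), so Krt15 was not called in either fit.

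The wound-induced keratins Krt6a and Krt16 were low. Krt6a had 21 to 121 counts per library. Its level was 8.53, 10.5, 4.10 and 14.3 CPM in G0 and 7.65, 9.28, 2.14 and 6.72 CPM in G1. All 4 runs were lower in G1, as were 9.46% of all genes tested, but the groups overlapped. The log2 fold change was -0.52 ± 0.46 (SE; edgeR adjusted p = 0.9999), and -0.54 ± 0.24 with the block (edgeR adjusted p = 0.362).

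Krt16, a type I partner of Krt6a, stood at 26.7, 42.3, 72.8 and 47.5 CPM in G0 and 26.5, 30.7, 43.3 and 50.8 CPM in G1. The G0 library of run 3 was the highest, and run 1 was nearly equal in both phases. The log2 fold change was -0.33 ± 0.30 (SE; edgeR adjusted p = 0.9999), and -0.29 ± 0.15 with the block (edgeR adjusted p = 0.442). The wound-induced keratins did not move as 1 group across libraries, since run 3 held the highest Krt16 level in G0 but the lowest Krt6a and Krt17 levels in both phases. In run 3 there were 0.0568 counts of Krt6a per count of Krt16 in G0 and 0.0506 in G1, against 0.134 to 0.321 in the other libraries.

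Run 3 also stood apart in luminal keratins and in other marker lists. The summed level of Krt7, Krt8, Krt18, Krt19, Krt20, Krt80 and Krt222 was 2122 CPM in G0 and 1937 CPM in G1 of run 3, against 1037 to 1711 CPM in the other 6 libraries. The fibroblast markers summed to 977 and 692 CPM in G0 and G1 of run 3, against 259 to 509 CPM elsewhere. The proliferation markers summed to 164 and 149 CPM, against 81.5 to 120 CPM. The largest part of the proliferation sum was 1 gene, Pcna, averaging 80.2 CPM in G0 and 81.4 CPM in G1. Mcm2, Ccna2, Top2a and Cdk1 averaged 10.5, 10.4, 1.35 and 1.19 CPM in G0. The basal and myoepithelial markers were lowest in run 3 in both phases, at 13276 and 20824 CPM. The part of these cells or transcripts in the run 3 levels of the 7 keratins was not tested.

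**Figure D2:**
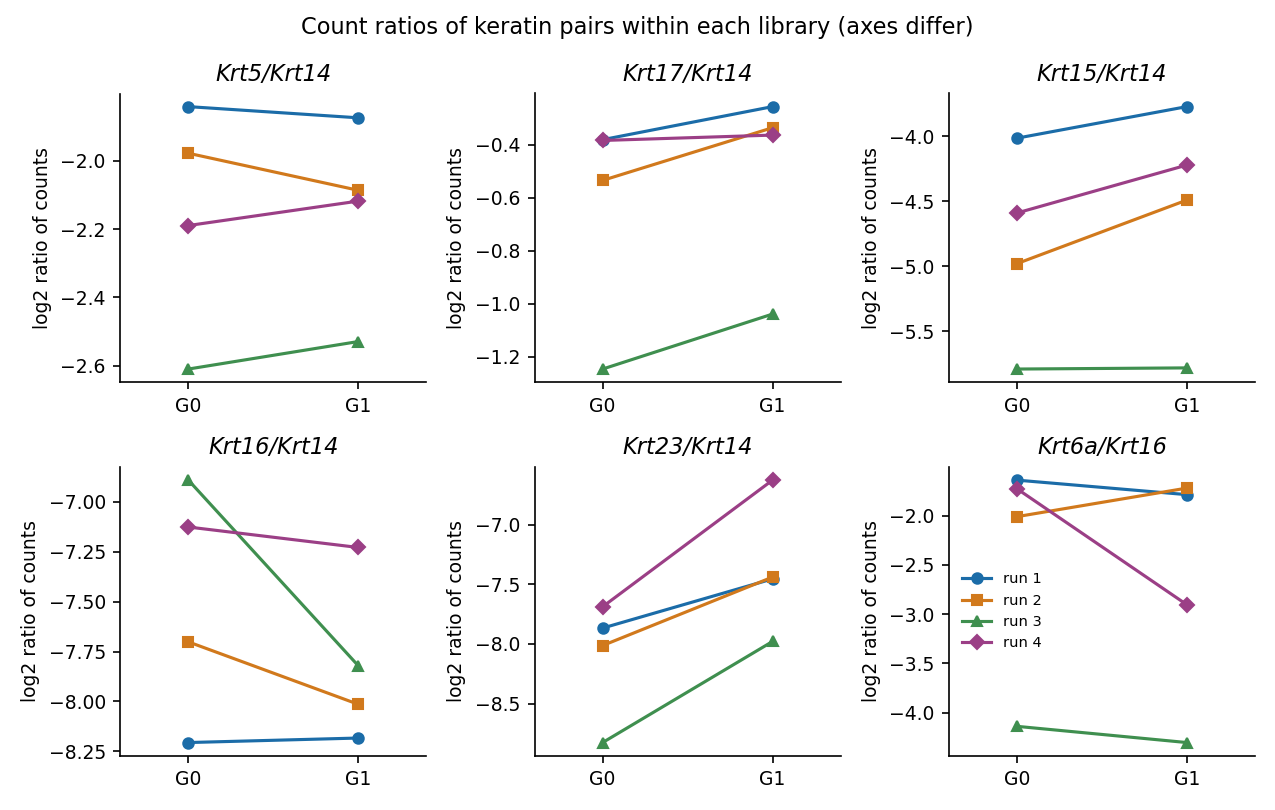
Log2 ratio of the counts of 2 keratins within the same library, G0 and G1 joined by run, on axes that differ between panels. Krt5/Krt14 is nearly flat within each run while the runs lie apart, and Krt23/Krt14 rises from G0 to G1 in all 4 runs.

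Krt23 was the member whose 2 phases did not overlap. Its level in runs 1 to 4 was 33.7, 34.1, 19.0 and 32.2 CPM in G0, from 372, 381, 269 and 180 counts. In G1 it was 43.9, 45.7, 38.8 and 77.1 CPM, from 620, 596, 380 and 516 counts. Every G1 library lay above every G0 library, as was so for 0.829% of all genes tested. In 0 of the 7 members did every G1 library lie below every G0 library, against 1.17% of all genes. The G1 library of run 4 was the highest and the G0 library of run 3 the lowest. Within runs, G1 exceeded G0 by 1.30, 1.34, 2.03 and 2.39-fold.

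The call of Krt23 needed the term for the run. Without the block its log2 fold change was 0.79 ± 0.26 (SE; edgeR unadjusted p = 0.0109, adjusted p = 0.9999). With the block it was 0.76 ± 0.15 (edgeR adjusted p = 0.00789), a 1.70-fold difference with a 95% interval from 1.36-fold to 2.11-fold, positive in 4 of 4 runs. Without run 4 the blocked log2 fold change was 0.59 (edgeR adjusted p = 0.170), so the call rested on that run. Over all genes tested, the fit without run 4 called 21 higher and 76 lower, against 73 and 116 with all runs. Without any other single run the log2 fold change of Krt23 was 0.67 to 0.90 and Krt23 stayed called. In the G0 library of run 4, 39094 genes had at least 1 count; the range elsewhere was 20836 to 26614.

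The counts of Krt23 were also read against Krt14 within each library. The log2 ratio rose from G0 to G1 by 0.41, 0.57, 0.85 and 1.06 in runs 1 to 4. The endothelial markers moved with the phase too, lower in G1, with a median log2 fold change of -1.78 and 13 of 14 called lower with the block. Of all genes tested, 0.764% were called lower in that fit. Of 10 fibroblast markers, 4 were called lower with the block, with a median of -0.64, and 3 were positive. Their summed levels were 259 to 977 CPM in G0 and 289 to 692 CPM in G1. In runs 1, 2 and 4 the sum was higher in G1, at 289, 392 and 509 CPM against 259, 373 and 355. In run 3 it was lower, at 692 against 977 CPM. Dcn, the most abundant fibroblast marker, had a blocked log2 fold change of 0.58 (edgeR adjusted p = 0.0973), positive in 3 of 4 runs. Immune and pericyte markers had 0 of 4 and 0 of 5 called with the block, against 1.24% of all genes tested. The immune and pericyte sums were at most 74.1 and 55.2 CPM. The part of these cells in the Krt23 difference was not tested.

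**Figure D3:**
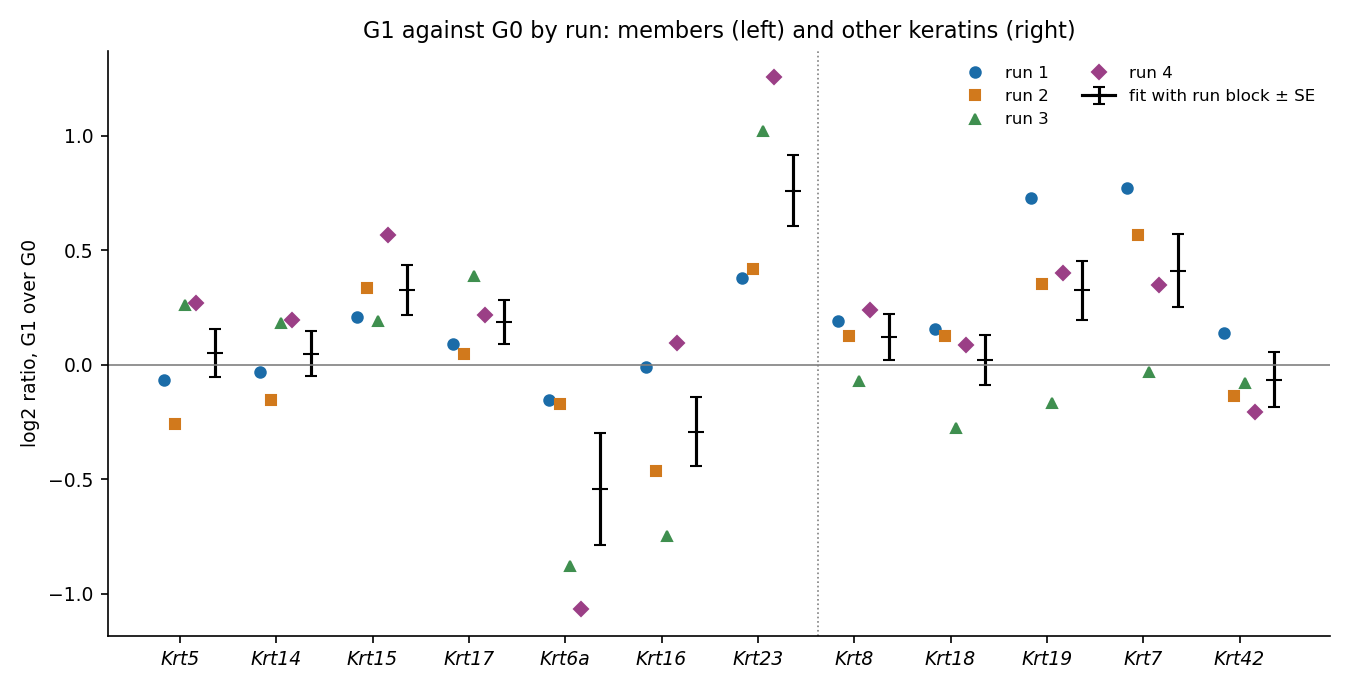
Log2 ratio of G1 over G0 in each run (colored symbols) and log2 fold change of the edgeR fit with the run as a block ± SE (black) for the 7 members and 5 other keratins. All 4 runs of Krt23 lie between 0.38 and 1.26, while Krt5, Krt14 and the luminal keratins have runs on both sides of 0.

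The promoters of a member that was called with the block and of one that was not are shown for comparison, from RefSeq on GRCm38.p6. Of the 7 members, 3 matched an entry, Krt5, Krt14 and Krt23. The entry for Krt14 starts at a transcript that begins inside the gene, at 100206030 where GENCODE begins the gene at 100207548, and is not shown. That of Krt23 starts at 99493120, where GENCODE begins the gene at 99493137, so the end of its window overlaps the annotated gene. The 250 bases before the RefSeq start are printed in the direction of transcription, on the minus strand in both genes, and distances are counted from that start. Capitals mark ATAAAA, a sequence like the TATA box that places the start of transcription.
Krt23, chr11:99493121-99493370: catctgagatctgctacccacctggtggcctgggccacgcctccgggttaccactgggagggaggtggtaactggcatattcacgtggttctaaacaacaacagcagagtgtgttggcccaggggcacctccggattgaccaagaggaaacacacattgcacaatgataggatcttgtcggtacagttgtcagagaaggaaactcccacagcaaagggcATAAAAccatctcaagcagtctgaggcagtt
Krt5, chr15:101712906-101713155: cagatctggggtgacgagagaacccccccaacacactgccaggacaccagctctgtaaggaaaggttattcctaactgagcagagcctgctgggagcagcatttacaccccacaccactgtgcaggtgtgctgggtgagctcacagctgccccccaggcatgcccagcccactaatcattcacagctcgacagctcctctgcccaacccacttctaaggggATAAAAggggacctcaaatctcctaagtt

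ATAAAA, searched on both strands, began 31 bases before the start in Krt23 and 29 bases before it in Krt5, and was found in 17.0% of all 32851 promoter windows of this length. TGANTCA, the motif of AP-1 factors, and GCCNNNGGC, that of AP-2 factors, were searched in the same way and have no match in either window. They were found in 6.75% and 13.7% of all windows. These matches are a description of the letters and were not related to the levels.

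The spread of each member over the 8 libraries was divided between runs, phases and the remainder. Runs took 75.4% to 91.5% of the sum of squares of log2 CPM in 6 members, with Krt15 the highest, and 34.4% in Krt23. The phase took 52.8% in Krt23 and 1.16% to 13.4% in the other 6. The medians over all genes tested were 68.1% for the run and 5.84% for the phase.

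**Figure D4:**
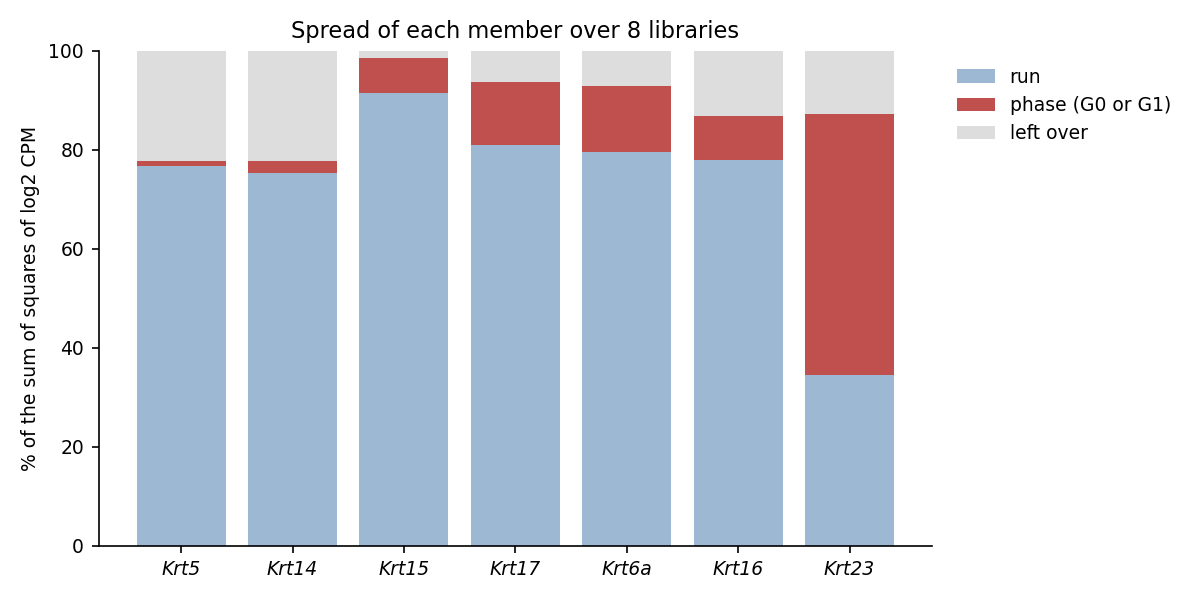
Share of the sum of squares of log2 CPM over the 8 libraries that lies between runs, between phases and in the remainder, for each member. The phase share is 52.8% for Krt23 and at most 13.4% for the other 6 members.

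The genes most like each member over the 8 libraries were taken by Pearson's r of log2 CPM among named genes averaging at least 3 on the log2 CPM scale, leaving out provisional Gm and Rik symbols. The libraries share runs and phases, so r is a description only. Krt23 was closest to Acta2 (r = 0.98), the contractile actin of myoepithelial cells, then to Rragd (r = 0.98), a Rag GTPase of mTORC1 signalling, and Capn6 (r = 0.96), a calpain-family protein. Acta2 stood at 8209, 8625, 5855 and 9014 CPM in G0 and 11134, 11808, 10512 and 15398 CPM in G1, so both genes were lowest in the G0 library of run 3 and highest in the G1 library of run 4. With the block Acta2 rose by 0.63 ± 0.10 (edgeR adjusted p = 0.000642) and Capn6 by 1.08 ± 0.20 (edgeR adjusted p = 0.00469), while Rragd had 0.58 ± 0.21 (edgeR adjusted p = 0.226). None of them was called without the block.

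**Figure D5:**
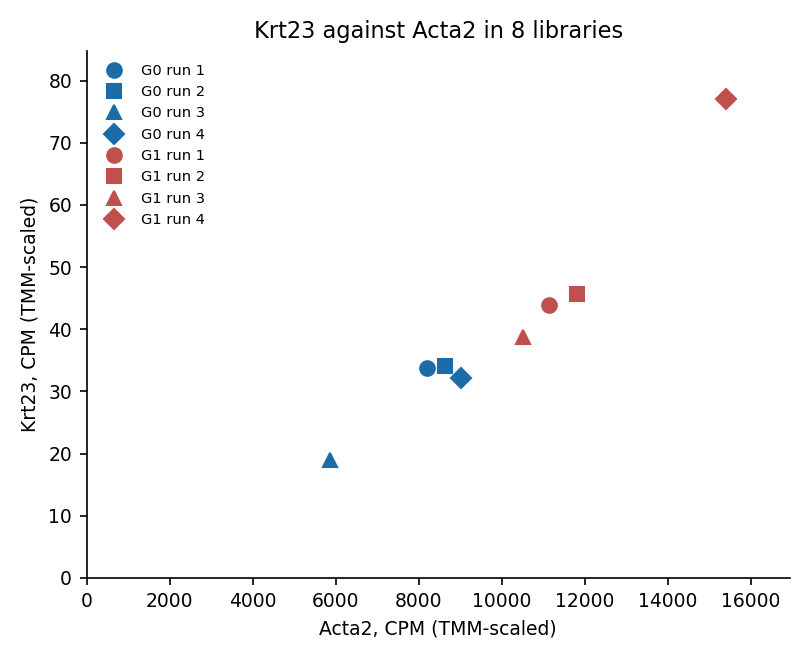
Level of Krt23 against that of Acta2 (both TMM-scaled CPM, linear axes from 0) in the 8 libraries, G0 in blue and G1 in red, with a symbol for each run. The G0 libraries lie at the lower left and the G1 libraries at the upper right, from 5855 CPM of Acta2 and 19.0 CPM of Krt23 to 15398 and 77.1 CPM.

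The other members had other nearest genes. Krt5 was closest to Wdr54, Dph1 and Rtkn (r = 0.99, 0.96 and 0.96), and Krt14 to Ranbp3, Rhod and Mrpl4 (r = 0.98, 0.97 and 0.97). Krt15 was closest to Smim7, Ankrd40 and Tmem250-ps (r = 0.99 for each), Krt17 to Ccn4, Ift52 and Arpin (r = 0.99 for each) and Krt6a to Arntl, Ercc6 and Smarcal1 (r = 0.98, 0.97 and 0.97). Krt16 was closest to Tnfaip3, an inhibitor of NF-kappaB signalling, Ccrl2 and Sqstm1 (r = 0.96, 0.95 and 0.94). No member was among the nearest 3 genes of another. Between members, r was highest for Krt15 with Krt17 (0.87) and Krt5 with Krt17 (0.81), was 0.15 for the partners Krt5 and Krt14, and was lowest for Krt16 with Krt17 (-0.81).

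Of the 55 keratin genes in the table, 23 passed the low-count filter, the 7 members and 16 others. While 1.24% of all genes tested were called with the block and 0% without it, 0 of these 16 others were called in either fit. Their median log2 fold change was 0.08, against -0.0007 over all genes tested, and 9 of 16 were positive without the block and 12 with it, against 49.9% and 51.1% of all genes tested. Krt8, the luminal type II keratin, stood at 874 ± 269 (G0) and 936 ± 212 CPM (G1; SD, n = 4), and its partner Krt18 averaged 398 ± 169 and 391 ± 104 CPM. Krt19 and Krt7, also of simple epithelia, had log2 fold changes of 0.33 ± 0.13 (edgeR adjusted p = 0.274) and 0.41 ± 0.16 (edgeR adjusted p = 0.261) with the block, each positive in 3 of 4 runs and negative in run 3. Krt42, 73.9% identical to Krt14 and 76.2% to Krt17 in coding sequence, had -0.07 ± 0.12 (edgeR adjusted p = 0.882) with the block. Krt20, a keratin of gut epithelium, was the other tested keratin whose phases did not overlap, at 0, 1.34, 0.707 and 1.07 CPM in G0 and 1.98, 2.22, 2.25 and 3.59 CPM in G1, with at most 29 counts in a library. It was not called with the block (edgeR adjusted p = 0.138).

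Proteins that anchor keratin filaments were described from lists. Of the desmosome and plakin list, which joins the filaments of neighbouring cells, 13 of 15 genes were tested. Among these, 0 were called in either fit, against 0% of all genes tested without the block and 1.24% with it. The log2 fold change was negative in 11 and positive in 2, while 49.9% of all genes tested were positive. The median of the list was -0.29, and it was -0.12, -0.20, -0.20 and -0.57 in runs 1 to 4. Its most abundant gene Jup, plakoglobin, went from a mean of 815 to 668 CPM, lower in all 4 runs (blocked log2 fold change -0.29, edgeR adjusted p = 0.205), while Perp averaged 492 and 593 CPM, higher in all 4 runs (blocked log2 fold change 0.28, edgeR adjusted p = 0.239). Lower in all 4 runs were 9.46% of all genes tested, and higher in all 4 runs 11.3%. Dsg3, the desmoglein of basal layers, averaged 3.77 and 1.77 CPM (blocked edgeR adjusted p = 0.278). Of 10 hemidesmosome genes, which tie the filaments to the basement membrane, 0 were called, 5 were positive and the median was -0.08. Col17a1, the most abundant of them, averaged 800 and 711 CPM (blocked log2 fold change -0.16, edgeR adjusted p = 0.618).

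Of 17 genes that regulate or bind keratins, 0 were called in either fit, against 0% of all genes tested without the block and 1.24% with it. The median log2 fold change of the 17 was -0.0006. Trp63, the p63 transcription factor that drives the basal keratins, averaged 112 CPM in both phases. Of the 10 tested genes of the list of other intermediate filaments, 0 were called, 5 were positive and the median was -0.04. That median had no stable sign or size, at -0.16 to 0.066 with single libraries left out and -0.32 without the low-count filter. Vim, vimentin, had means of 343 and 351 CPM. Synm, synemin, and Des, desmin, intermediate filament proteins of muscle, were positive in all 4 runs, as were 11.3% of all genes tested. The blocked log2 fold changes of Synm and Des were 0.41 (edgeR adjusted p = 0.123) and 0.68 (edgeR adjusted p = 0.238).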

How the data were processed

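The authors deposited 1 table of raw counts, with Ensembl genes in rows and a column for each library. Per the submitters' processing notes, Trimmomatic 0.35 and STAR 2.5.2a were used with mm10. The counter, the strandedness option and the annotation release were not given in the sources used here. Of 54837 identifiers, 54722 matched a GENCODE M21 symbol. Per the labels' protocols, poly(A) RNA was made into stranded libraries.

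Counts were fitted with edgeR 4.0.16 in R 4.3.3 (quasi-likelihood, robust, TMM, filterByExpr), phase alone, two-sided, with Benjamini-Hochberg adjustment over 15192 genes. Standard errors were derived from F and the fold change. The prior count was 2 for log2 CPM and 0.5 for pair ratios. The run numbers in the titles pair the libraries: deviations from the phase mean correlated at 0.437 to 0.668 within a run and at most 0.0971 between runs. Alternatives were RLE scaling, other filters, DESeq2 1.42.0, limma-voom 3.58.1, the run as a replicate block, a library size without the most counted genes, and libraries or runs left out. The fits were tested on simulated counts. Within each phase, no library was a copy of another (chi-square per degree of freedom at least 21.7). Libraries of different phases were not compared in this way. Sequence comparisons used Biopython 1.88 on GENCODE M21 transcripts. The rule for named genes takes the members, the other tested keratins, the list genes with the smallest p or highest level, and the 3 genes most like each member. Members and lists were chosen with earlier results of these data known. The list of other intermediate filaments includes Syne2, which is a nesprin. A shared sequence of another pair of members is not reported here.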

Additional observations from a re-analysis of the deposited data

Results flagged for a closer look

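In each phase, the most extreme of the 4 libraries was checked for the members, 6 other keratins and 7 pair ratios. A library was noted when its gap to the nearest other library exceeded 0.83 of the range of the group, a limit that chance passes in about 1 of 20 groups, and 5 of 40 groups did. Krt14 in G1 was high in run 3, at 9802 CPM. Krt23 in G0 was low in run 3, at 19.0 CPM. The log2 ratio of Krt6a to Krt16 in G0 was low in run 3, at -4.14, and that of Krt17 to Krt14 in G1 was low in run 3, at -1.04. Krt20 in G1 was high in run 4, at 3.59 CPM. Of these 5 values, 4 are from run 3.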

How the results depend on the processing

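Of the 7 members, 6 were called under none of the 23 alternatives, and the direction of Krt15, Krt17, Krt6a, Krt16 and Krt23 was the same in all of them, but their size was not. When a single library was dropped and phase alone was fitted, the estimate (log2) was 0.065 to 0.68 for Krt15, 0.031 to 0.26 for Krt17, -0.76 to -0.22 for Krt6a and -0.52 to -0.036 for Krt16. Krt23 was called in 7 of 8 alternatives with the replicate block and in 0 of 15 without it. Its blocked log2 fold change was 0.76 by edgeR, 0.76 with RLE, 0.76 by DESeq2 and 0.74 by limma-voom, with adjusted p of 0.00789, 0.00552, 0.00283 and 0.00823. In the blocked fit it was 0.90, 0.88, 0.67 and 0.59 without run 1, 2, 3 or 4, and with single libraries left out of the fit without the block it was 0.52 to 0.90. The direction of Krt5 and Krt14 was not stable. With single libraries left out, the log2 fold change was -0.080 to 0.14 for Krt5 and -0.040 to 0.10 for Krt14. The blocked fit gave Krt5 -0.026 without run 3, -0.031 without run 4 and up to 0.16, and Krt14 -0.0021 without run 3, -0.010 without run 4 and up to 0.12. With libraries or runs left out it was -0.026 to 0.28 for Krt8, -0.21 to 0.31 for Krt18 and -0.21 to 0.13 for Krt42. Krt18 was also positive without the low-count filter (0.012), by limma-voom (0.027) and with the block (0.022 by edgeR, 0.020 with RLE, 0.020 by DESeq2 and 0.013 by limma-voom), against -0.03. The counts of all genes called higher and lower, 0 and 0, became 14 and 73 without the filter, 10 and 24 by DESeq2, and with the block 73 and 116 by edgeR, 74 and 123 with RLE, 97 and 136 by DESeq2 and 77 and 134 by limma-voom. They were 0 and 0 with any single library left out of the fit without the block. In the blocked fit with a run left out they were 21 to 99 (63 without run 2) and 76 to 175 (90 without run 2 and 144 without run 3). The block changed no call of another member. The cause of these differences was not tested. Depth limits Krt6a most, at 21 counts in its lowest library.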
